A study of Mus musculus with 20 samples.

Results

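Mouse prostates taken 3 days after castration were compared with prostates of sham-treated mice, gene by gene, to describe the earliest response to androgen loss in this series. The comparison used 10 of the 20 arrays of the series, 5 of mice castrated 3 days earlier and 5 of sham mice, chosen by their labels alone. Every mouse was C57/B6, aged 10 to 12 weeks, and 1 array was run on the prostate of each. The other 10 arrays came from mice castrated for 14 days and from mice castrated for 14 days and then given a 15 mg testosterone pellet for 3 days. The interval between sham surgery and killing is not stated in the labels beyond the group's code, and neither is the time of day of killing. The prostate holds secretory luminal cells, basal cells, fibroblasts, smooth muscle, vessels, nerves and immune cells. In such bulk RNA, fewer cells of a type and less RNA per cell cannot be told apart.

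The luminal cells of the prostate depend on testosterone, most of which comes from the testes, acting through the androgen receptor in the epithelium and in the stroma around it. Removal of the testes withdraws the hormone, secretion falls, many luminal cells die, and the gland shrinks over days to weeks. Such a gland is a protein-exporting tissue, with a large endoplasmic reticulum and a high demand for amino acids. Regression also involves remodelling of the matrix and uptake of dead cells by phagocytes.

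Array medians of the 10 arrays lay between 179.8 and 209.8 (linear signal units). Correlations of the signals across probe sets were 0.957 to 0.991 among sham arrays, 0.984 to 0.994 among arrays of castrated mice, and 0.952 to 0.981 between the groups. Some sham arrays stood apart. Sham replicate 1 had a signal of 13381 for Sva, a seminal vesicle secretory gene, against 185 to 1529 in the other sham mice, and the lowest signals of its group for the prostate gene Pbsn and the luminal keratin Krt18. Sham replicates 2 and 3 had high skeletal muscle signals, with 1980 and 2412 for the muscle myosin light chain gene Myl1 against 112 to 519 in the other sham mice. Some results that rest on these arrays are given with and without them. The log2 ratio of the 3′ to the 5′ control probe set of Gapdh, a sign of RNA quality, was -0.53 to -0.08 on the 10 arrays. It was 2.05 and 1.82 in the 14-day castrates' replicates 4 and 5, and 4.5 and 3.9 in the testosterone group's replicates 2 and 5, which shared the fit and its estimate of spread. Pbsn, the probasin gene that marks mouse prostate, was 14179.6 units or more on each of the 10 arrays, as the tissue label requires.

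Of 5372 genes tested, 812 (15.1%) passed an adjusted p of 0.05, 562 of them higher (10.5%) and 250 lower (4.65%) 3 days after castration. By probe set, 680 of 6913 were higher (9.84%) and 308 lower (4.46%). Counts for the gene lists below are to be read beside the 10.5% and 4.65% of all genes. Most changes were small: 88 genes rose (1.64%) and 27 fell (0.503%) at least 2-fold, and 6 rose and 5 fell at least 4-fold. The median log2 change of all genes tested was 0.04. The 5 values of each group did not overlap for 751 genes (14%), of which 492 were above sham (9.16%) and 259 below (4.82%). Among the genes tested, the balance of directions differed over the range of signal: among the 538 genes with the highest mean signals over all arrays (2484 units or more) 37 rose and 51 fell, whereas among the 2686 genes of the lower part of the range (73.6 to 599.8 units) 287 rose and 89 fell. The filter on dim genes bears on this balance, since a dim gene could pass it through the groups where it was high. Dbp, Cadps, Ccl8, Ifit3, Gbp3 and Iigp1, for instance, lay below the filter level of 190.8 in every sham mouse. Counts of rises in the lists below include such genes. By probe set and with no filter, a count made after seeing the data, 306 were higher and 132 lower in that lower range, whereas 27 were higher and 200 lower among the 3958 probe sets below it.

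**Figure D1:**
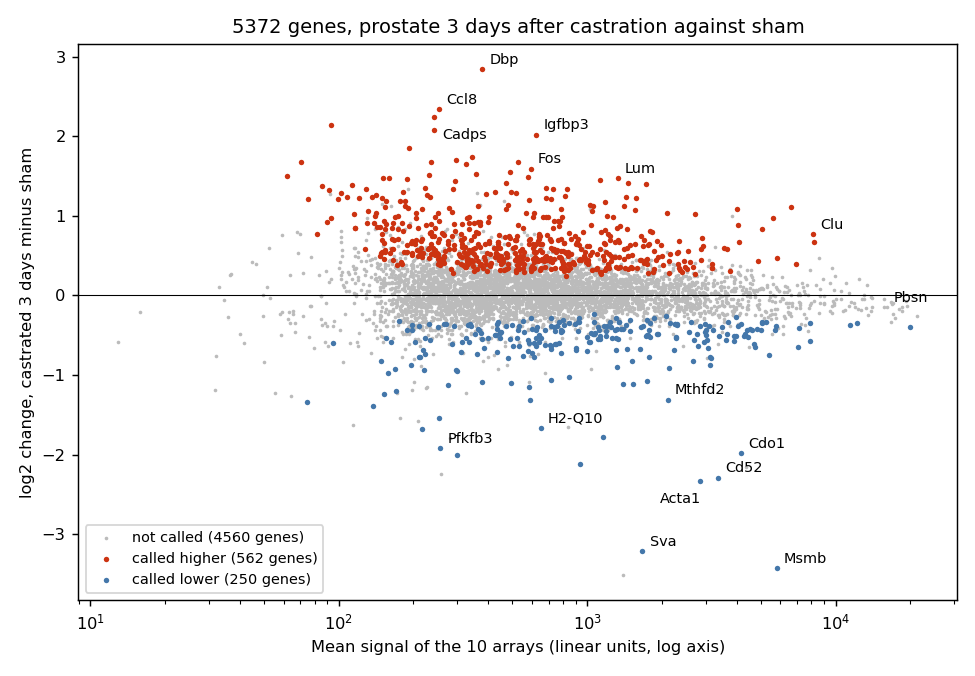
Each point is 1 of 5372 genes, placed by its mean signal over the 10 arrays (linear units on a log axis) and its log2 change 3 days after castration against sham, with 562 genes called higher in red and 250 called lower in blue at an adjusted p of 0.05. Msmb lies lowest among the called genes at -3.43 and Dbp highest at 2.84, while Pbsn, with one of the highest means, lies near 0.

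Secretory genes of the prostate fell in part. Of 14 tested members of the prostate secretory list, 3 fell and none rose, with a median of -0.19, and 5 fell without the 4 later arrays of high Gapdh ratio. Without sham replicates 2 and 3, 2 fell. Msmb, which encodes the secreted microseminoprotein, had signals of 11655, 9931, 9253, 12940.5 and 8835 in sham replicates 1 to 5 and of 854, 1014, 1295, 1937 and 360.3 in the castrated mice. Every castrated mouse was far below every sham mouse, and the 10.8-fold fall (log2 change -3.43, SE 0.45, adjusted p = 5.4e-05) was the largest of any gene whose groups did not overlap. Apof, an apolipoprotein gene, fell from 384 ± 101 to 124 ± 41.5 (SD, n = 5 each; log2 change of -1.54, SE 0.21, adjusted p = 7.12e-05), and Ang, a secreted ribonuclease, from 829.5 ± 187 to 525 ± 54.8 (log2 change of -0.62, SE 0.17, adjusted p = 0.0167). Ang no longer passed without sham replicates 2 and 3 (adjusted p = 0.156). Pbsn behaved otherwise. Its signals were 14179.6, 17332, 17772, 18101 and 17137 in the sham mice and 15349, 15113, 15041, 15595 and 14798 in the castrated mice, which overlapped (log2 change of -0.15, SE 0.12, adjusted p = 0.441). The Pbsn mean was 4903 ± 854 in the mice castrated for 14 days, against 16900.0 ± 1569 in sham (SD, n = 5 each).

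**Figure D2:**
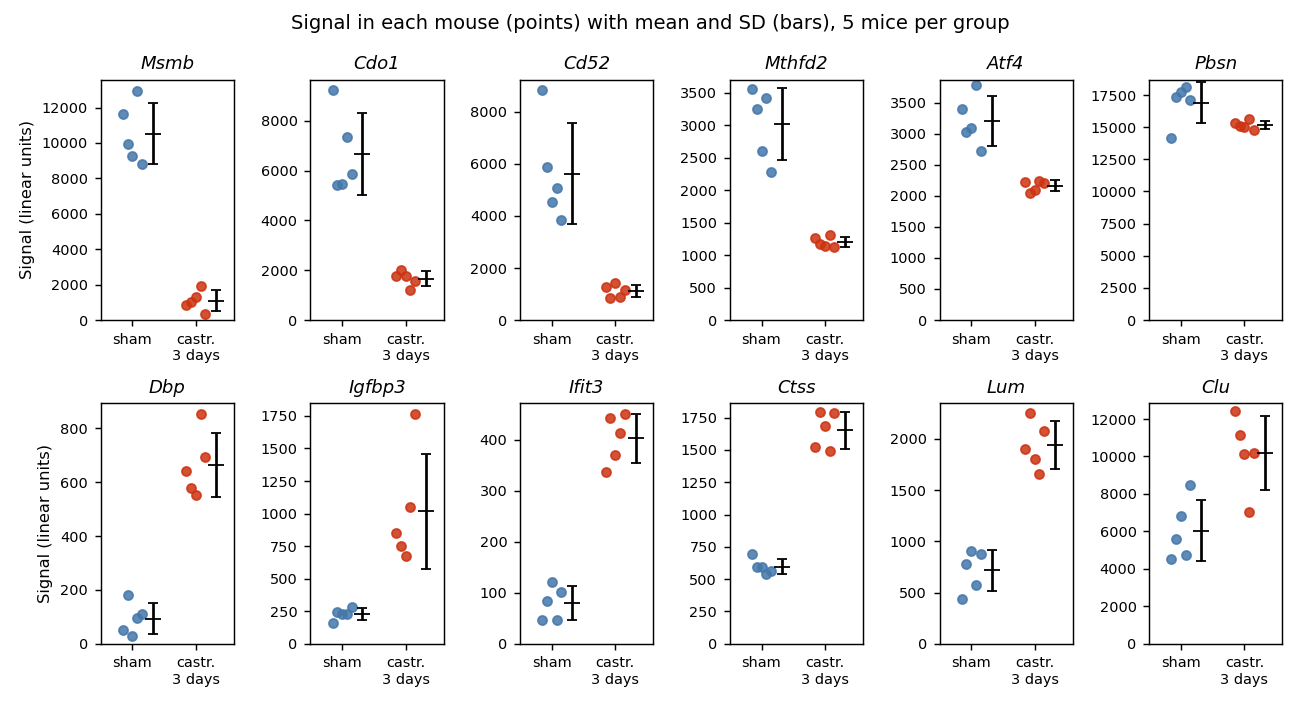
Signals (linear units, axes from 0) of 12 genes in each of the 5 sham mice (blue) and 5 mice castrated for 3 days (red), in replicate order from left to right, with the group mean and SD in black. The groups are separate for Msmb, Cdo1, Cd52, Mthfd2, Atf4, Dbp, Igfbp3, Ifit3, Ctss and Lum, and overlap for Pbsn and Clu.

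Several other transcripts also fell without overlap. Cdo1, cysteine dioxygenase, which commits cysteine to taurine and sulfate, read 9248, 5413, 5454, 7354 and 5847 in sham mice and 1772, 2019.6, 1750.0, 1215 and 1578 in castrated mice. The groups were well apart, a 3.94-fold fall (log2 change of -1.98, SE 0.20, adjusted p = 2.7e-06). Cd52, a surface glycoprotein gene known from lymphocytes and from epithelium of the male tract, read 8838, 5872, 4522, 5078 and 3842 in sham mice and 1273, 855, 1413, 882 and 1160.4 in castrated mice (log2 change of -2.29, SE 0.22, adjusted p = 2.19e-06). It was the only one of 35 tested macrophage and myeloid list members to fall, and none of the 9 tested lymphocyte genes passed the test. H2-Q10, which encodes a secreted class I-like molecule, fell from 994 ± 109 to 306 ± 53.6 (log2 change of -1.67, SE 0.15, adjusted p = 1.95e-06), also without overlap. Lct, the lactase gene, fell from 339.6 ± 95.6 to 93.6 ± 10.5 (log2 change of -1.68, SE 0.19, adjusted p = 9.71e-06). Ank1, which encodes a membrane skeleton ankyrin, and Cdr2 also fell without overlap, with log2 changes of -1.11 and -1.20.

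Genes known to respond to androgen in prostate cells moved in both directions: 4 of 48 tested rose and 6 fell, with a median of 0.03. Of all genes tested 10.5% rose and 4.65% fell, so the rises were no larger a share than among all genes. The count of falls was 3 without sham replicate 2 and also without both sham replicates 2 and 3, and the count of rises was 1 without sham replicate 3 or castrated replicate 4, and 2 without sham replicate 2 or castrated replicate 1, 2 or 3. Fkbp5, a cochaperone of steroid receptors and a direct target of the androgen and glucocorticoid receptors, had signals of 2521, 2004, 1485, 1528 and 1197 in sham and 879.6, 946, 811, 977 and 897 in castrated mice. All 5 castrated values lay below all sham values (log2 change of -0.90, SE 0.15, adjusted p = 0.000478). Among 28 genes that glucocorticoids induce, 2 rose and 5 fell, with a median of 0.01. Here too the rises were no larger a share than among all genes. The count of falls was 3 without sham replicate 2 or 3 or castrated replicate 1 or 2, and 2 without both sham replicates 2 and 3. Fkbp5 belongs to both lists. Il1r2, a decoy receptor for interleukin 1, rose from 358 ± 115 to 807 ± 87.6 (log2 change of 1.20, SE 0.18, adjusted p = 0.000243), although the other of its 2 probe sets was not called. Dusp1, a phosphatase of stress kinases, rose from 437 ± 51.4 to 896 ± 196 (log2 change of 0.99, SE 0.14, adjusted p = 9.12e-05).

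Genes that supply amino acids to protein synthesis had the highest shares of falls among the lists with over 5 tested genes. Of 26 tested genes of amino acid and one-carbon metabolism 12 fell and 1 rose, with a median of -0.43, and of 18 aminoacyl-tRNA synthetases 8 fell and none rose, with a median of -0.28. Leaving out single arrays gave 11 to 12 and 6 to 8 falls, and arrays centred on their medians gave 5 for the synthetases. Mthfd2, a mitochondrial folate enzyme, read 3559, 3254, 2597, 3427 and 2284 in sham and 1263, 1173, 1137, 1305 and 1127 in castrated mice. The lowest sham value was well above the highest castrated value (log2 change of -1.31, SE 0.16, adjusted p = 1.85e-05). Psat1, an enzyme of serine synthesis, read 3441, 1545, 1452, 2022 and 1272 in sham and 1053, 742, 846, 831 and 731 in castrated mice (log2 change of -1.11, SE 0.20, adjusted p = 0.00105). Sham replicate 1 was the highest for Psat1, and the groups did not overlap with or without it. Psph, which completes serine synthesis, Aldh18a1, of proline synthesis, and Asns, asparagine synthetase, fell with log2 changes of -0.64, -0.68 and -0.43. The carriers fell too. Slc7a5, which imports large neutral amino acids, went from 3950.0 ± 764 to 2277 ± 98.9 (log2 change of -0.77, SE 0.13, adjusted p = 0.000752), and Slc1a4, a carrier of small neutral amino acids, from 888 ± 165 to 549 ± 43.2 (log2 change of -0.67, SE 0.12, adjusted p = 0.000772). Both were without overlap. The gene that rose was Glud1, glutamate dehydrogenase, from 704 ± 81.3 to 1100.0 ± 106 (log2 change of 0.64, SE 0.14, adjusted p = 0.00413).

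Among the synthetases, Gars for glycine read 2576, 2259, 1550.4, 2722 and 2211 in sham and 1345, 1279, 1244, 1320.3 and 1292 in castrated mice, without overlap (log2 change of -0.77, SE 0.12, adjusted p = 0.000302). Mars1 for methionine fell from 983 ± 149 to 585 ± 36.5 (log2 change of -0.73, SE 0.10, adjusted p = 5.85e-05), Yars for tyrosine from 937 ± 193 to 606 ± 40.5 (log2 change of -0.60, SE 0.12, adjusted p = 0.00201) and Cars for cysteine from 764 ± 150.4 to 487 ± 115 (log2 change of -0.64, SE 0.14, adjusted p = 0.00385). Aars, Lars, Tars and Iars fell with log2 changes of -0.45, -0.40, -0.36 and -0.33, and without sham replicate 1 Aars and Iars did not pass (adjusted p = 0.116 and 0.0555). Aars also did not pass without sham replicate 4 or 5 or castrated replicate 2, 4 or 5. Many genes of both lists are known targets of ATF4, the transcription factor of the amino acid response. Atf4 itself read 3396, 3033, 3093, 3781 and 2722 in sham and 2226, 2038, 2097, 2243 and 2205 in castrated mice, without overlap (log2 change of -0.56, SE 0.10, adjusted p = 0.00101), and the related Atf5 fell from 622 ± 259 to 336 ± 27.4 (log2 change of -0.79, SE 0.18, adjusted p = 0.00578). Eif4ebp1, a repressor of cap-dependent translation, fell from 776 ± 85.4 to 448 ± 51.8 (log2 change of -0.78, SE 0.10, adjusted p = 5.85e-05). The rest of the translation apparatus gave few calls: 2 of 35 translation factor genes fell, Eif4ebp1 and the initiation factor gene Eif2b2, and 1 of 22 ribosomal protein genes fell, Rpl13a. Both shares of falls were near that of all genes. Eif2b2 and Rpl13a had adjusted p of 0.0582 and 0.0614 without sham replicates 2 and 3.

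ATF4 binds with a C/EBP partner to an 8-base element, TTGCATCA, and promoters of 3 of these genes are shown because they hold it. The element was chosen after the falls were seen. It was searched on both strands in RefSeq windows of 300 bases, from 250 before to 50 after each gene's start (GRCm38.p6). Of the 20 genes that fell in the amino acid and synthetase lists, 15 had a window and 5 held the element (Slc1a4, Yars, Aars, Iars and Tars), against 1.03% of 27025 genes and 0.895% of 32851 windows. Because the lists hold many known targets of ATF4, a share above that of all genes was likely whether or not they fell. The share among members that did not fall was not computed. The windows are chr11:20332664-20332963 (minus strand), chr4:129189653-129189952 (plus) and chr8:111033592-111033891 (plus), written 5′ to 3′ on the gene's strand with the element in capitals (its reverse complement in Yars).
Slc1a4: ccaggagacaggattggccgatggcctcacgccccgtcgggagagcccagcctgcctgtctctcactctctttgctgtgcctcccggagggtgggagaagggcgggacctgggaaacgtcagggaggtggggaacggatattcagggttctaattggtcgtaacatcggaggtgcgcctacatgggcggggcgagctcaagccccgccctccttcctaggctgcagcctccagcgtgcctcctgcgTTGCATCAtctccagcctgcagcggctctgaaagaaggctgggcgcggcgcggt
Yars: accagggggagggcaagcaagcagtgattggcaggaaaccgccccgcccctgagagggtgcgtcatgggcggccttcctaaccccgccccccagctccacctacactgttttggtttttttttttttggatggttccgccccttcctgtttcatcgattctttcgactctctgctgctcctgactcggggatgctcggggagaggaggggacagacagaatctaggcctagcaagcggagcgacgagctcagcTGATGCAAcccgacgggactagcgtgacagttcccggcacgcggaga
Aars: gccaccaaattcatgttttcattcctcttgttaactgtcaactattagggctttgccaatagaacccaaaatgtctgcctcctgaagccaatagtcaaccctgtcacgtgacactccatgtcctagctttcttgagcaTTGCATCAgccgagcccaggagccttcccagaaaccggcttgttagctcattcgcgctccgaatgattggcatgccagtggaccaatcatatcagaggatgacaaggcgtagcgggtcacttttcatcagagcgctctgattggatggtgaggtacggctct
A match describes the letters only, and binding was not measured.

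Some genes of the secretory pathway fell. Of 45 tested folding enzymes and partners of the endoplasmic reticulum 9 fell and 1 rose, with a median of -0.30, and of 84 genes for translocation, glycosylation and vesicle transport 16 fell and none rose, with a median of -0.18. Leaving out single arrays gave 6 to 12 and 9 to 14 falls, the 9 without castrated replicate 5, and 10 of the 84 fell without sham replicates 2 and 3. Without the 4 later arrays of high Gapdh ratio 15 of the 45 fell, and with arrays centred on their medians 9 of the 84. Sham replicate 1, which stood apart in its Sva signal, was the highest sham array for several members. Herpud1, which serves degradation of misfolded proteins, read 6447, 4114, 3633, 3783 and 2391 in sham and 2004, 2301, 2142, 2577 and 2159 in castrated mice. The groups overlapped at the lowest sham value, and the fall passed the test (log2 change of -0.79, SE 0.18, adjusted p = 0.00554). Manf, a secreted folding-stress factor, fell from 5854 ± 1679 to 3662 ± 499 (log2 change of -0.65, SE 0.15, adjusted p = 0.0074), without overlap. Dnajc3 fell from 6785 ± 1822 to 3999 ± 754 (log2 change -0.75, adjusted p = 0.0279) and Sel1l from 1135 ± 487 to 663 ± 89.7 (log2 change -0.69, adjusted p = 0.0476), and without sham replicate 1 their adjusted p was 0.0775 and 0.124. Dnajc3 also did not pass without sham replicate 4 or castrated replicate 4 or 5, and Sel1l passed in none of the refits without any single sham or castrated array except that without sham replicate 5.

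Along the export route, Gmppb, which makes GDP-mannose for glycans, read 779, 638, 722, 568 and 791 in sham and 402, 443, 409.5, 438 and 341 in castrated mice. No value overlapped (log2 change of -0.76, SE 0.11, adjusted p = 0.000137). Man2a1, a Golgi mannosidase, fell from 4324 ± 303 to 2932 ± 155 (log2 change of -0.56, SE 0.12, adjusted p = 0.0048), and Slc35b1, a nucleotide carrier of the endoplasmic reticulum, from 4682 ± 1027 to 3114 ± 343 (log2 change of -0.57, SE 0.15, adjusted p = 0.017). The chief chaperone of the compartment was another matter. Hspa5 read 11446, 8190.4, 8419.9, 11371 and 6935 in sham and 7463, 8263, 8549, 7957 and 7004 in castrated mice, with overlap (log2 change of -0.22, SE 0.16, adjusted p = 0.406). Xbp1, a transcription factor of the unfolded protein response, had a mean of 3453 ± 246 in sham and 3438 ± 237 in castrated mice (log2 change of -0.01, SE 0.13, adjusted p = 0.983). The member that rose was Ppic, a prolyl isomerase (log2 change of 0.83, SE 0.11, adjusted p = 5.93e-05). Limma called 0 of 33 proteasome subunits (median -0.01), with 1 higher and 2 lower at an unadjusted p of 0.05.

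Energy metabolism changed at single genes. Of 27 genes of glycolysis and the hypoxia response 6 fell and 2 rose. Without sham replicates 2 and 3, 4 fell and the median went from -0.11 to 0.05. Pfkfb3, which makes the activator of phosphofructokinase, read 582, 362, 372, 415 and 332 in sham and 97.8, 122, 84.4, 70.8 and 120.4 in castrated mice, without overlap (log2 change of -1.92, SE 0.20, adjusted p = 4.64e-06). Bpgm, bisphosphoglycerate mutase, read 4699, 1642, 806, 1406 and 884 in sham and 499, 360.3, 425, 361 and 525 in castrated mice (log2 change of -1.78, SE 0.32, adjusted p = 0.00102). Sham replicate 1 was far above the others for Bpgm, and the groups did not overlap without it either. Idh1, the cytosolic isocitrate dehydrogenase, was the citrate cycle gene, of 27 tested, that passed, and it rose from 888 ± 112 to 1937 ± 183 (log2 change of 1.12, SE 0.11, adjusted p = 2.19e-06). In the respiratory chain 4 of 53 fell and 1 rose, and in cholesterol synthesis 3 of 14 fell, a count that was 6 without sham replicate 4, 0 without sham replicate 3 or castrated replicate 3, and 1 without sham replicate 1 or 5 or castrated replicate 1 or 4. The respiratory count of falls was 1 without sham replicate 3 or castrated replicate 5, and 2 without castrated replicate 1. Srebf1, a transcription factor of lipid synthesis, rose from 1611 ± 157 to 2254 ± 202 (log2 change of 0.48, SE 0.09, adjusted p = 0.00175). Among glutathione and antioxidant genes 4 of 37 rose and 4 fell, with 2 to 5 rises and 0 to 3 falls when single arrays were left out, the fewest of both without castrated replicate 3. The share of rises was near that of all genes. Gstt1, a glutathione transferase, rose from 445 ± 184 to 990.3 ± 152 (log2 change of 1.21, SE 0.21, adjusted p = 0.000805), and Nfe2l2, the regulator of antioxidant genes, from 655 ± 76.8 to 968 ± 121 (log2 change of 0.55, SE 0.10, adjusted p = 0.00109).

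Genes of the circadian clock included the largest rise of all. Of 19 tested, 7 rose and 2 fell, with a median of 0.33. Dbp, a transcription factor whose level cycles daily, had signals of 50.9, 182, 30, 95.4 and 111 in sham and 642, 578, 552, 852 and 693 in castrated mice. The lowest castrated value was well above the highest sham value (7.17-fold; log2 change of 2.84, SE 0.28, adjusted p = 2.19e-06). Nr1d1, a repressor of the clock's positive arm, rose from 489 ± 165 to 1143 ± 189.5 (log2 change of 1.25, SE 0.17, adjusted p = 9.46e-05), and Per2, of the negative arm, from 40.2 ± 17.8 to 109.6 ± 42.2 (log2 change of 1.21, SE 0.21, adjusted p = 0.00086). Per2 lay below the filter level of 190.8 on all 10 compared arrays, so it was tested only because of the later groups. Bhlhe40, another repressor, rose from 90.2 ± 27.2 to 221 ± 51.1 (log2 change of 1.19, SE 0.18, adjusted p = 0.000236), and Tef, Nr1d2 and Wee1 rose with log2 changes of 1.12, 0.94 and 0.60. Wee1 did not pass in 6 of 10 refits without 1 array, among them that without sham replicate 1 (adjusted p = 0.0817).

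Cry1, of the negative arm, fell from 545 ± 118 to 325 ± 49.5 (log2 change of -0.71, SE 0.13, adjusted p = 0.00143), and Arntl, the positive factor BMAL1, from 419.7 ± 100.4 to 289.7 ± 34.4 (log2 change of -0.49, SE 0.15, adjusted p = 0.0397). The call of Arntl did not hold without sham replicate 1 (adjusted p = 0.0904), and was lost in 8 of 10 refits that left out 1 array. Per1 was above its sham values in all 5 castrated mice without passing the test (log2 change of 0.36, SE 0.18, adjusted p = 0.202). The time of day at which the mice of each group were killed was not given, and its part in these values was not tested. In the promoter windows of 6 of the 9 called clock genes, TTATGTAA (the D-box) was found in none, against 1.11% of genes, and CACGTG (the E-box) in Cry1 and Tef, against 8.09% of genes. The shares among clock genes not called were not computed.

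Immediate early genes, which are induced within minutes by growth factors, stress and handling of tissue, rose in 10 of 32 cases and fell in 1, with a median of 0.26. Without sham replicates 2 and 3 the count was 6. Fos read 178, 231, 403, 315 and 341 in sham and 772, 744, 792, 1034 and 1111 in castrated mice, without overlap (log2 change of 1.59, SE 0.18, adjusted p = 9.82e-06). Egr1 read 305, 341, 632, 559 and 539.7 in sham and 1271, 793, 1135, 1378 and 1372 in castrated mice, also without overlap (log2 change of 1.33, SE 0.22, adjusted p = 0.000601). Ptgs2, the inducible cyclooxygenase, went the other way. Its signals were 659, 858, 430.3, 230.1 and 259 in sham and 119, 46.3, 222, 74.4 and 94.1 in castrated mice, just without overlap (log2 change of -2.0, SE 0.37, adjusted p = 0.00139).

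Genes of macrophages and antigen presentation rose together. Of 35 tested macrophage and myeloid genes 22 rose and 1, Cd52, fell, with a median of 0.71, and of 8 MHC class II presentation genes 7 rose, with a median of 1.0. The summed signal of the macrophage list was 17250 to 23960 in sham and 23300 to 28130 in castrated mice. That sum includes Cd52, at 3842 to 8838 in sham and 855 to 1413 in castrated mice. Csf1r, the receptor of the macrophage growth factor, read 271, 264, 258, 262 and 349 in sham and 693, 799.7, 690.5, 697 and 646 in castrated mice. The groups were far apart (log2 change of 1.30, SE 0.12, adjusted p = 2.04e-06). Ctss, cathepsin S of antigen-presenting cells, read 694, 595, 594, 539.9 and 562 in sham and 1522, 1793, 1684, 1489 and 1784 in castrated mice (log2 change of 1.45, SE 0.16, adjusted p = 9.71e-06). Tyrobp, a signalling adaptor of myeloid receptors, rose from 179 ± 33.7 to 538 ± 99.8 (log2 change of 1.52, SE 0.21, adjusted p = 0.0001), Lyz2, the macrophage lysozyme, from 410.2 ± 95.3 to 1041 ± 123 (log2 change of 1.34, SE 0.19, adjusted p = 8.73e-05), and Cd68, an endosomal protein of phagocytes, from 218 ± 23.8 to 437 ± 11.7 (log2 change of 0.97, SE 0.09, adjusted p = 2.19e-06). None of these overlapped. In the class II list, which shares Ctss with the macrophage list, H2-Ab1 read 388, 403, 241, 228 and 247 in sham and 581, 736, 548, 557 and 782 in castrated mice (log2 change of 1.08, SE 0.20, adjusted p = 0.00125), and the invariant chain gene Cd74 1892, 2127, 1602, 1572 and 1746 in sham and 3563, 3900.3, 3308, 3459.9 and 3904 in castrated mice (log2 change of 1.02, SE 0.17, adjusted p = 0.000531). Both rose about 2-fold and without overlap.

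Other leukocyte lists gave fewer calls. Of 7 tested neutrophil and mast cell genes 2 rose, both mast cell proteases: Cpa3 from 43.2 ± 20.1 to 127 ± 31.4 (log2 change of 1.37, SE 0.21, adjusted p = 0.00027) and Cma1 from 138 ± 45.9 to 295 ± 47.6 (log2 change of 1.08, SE 0.27, adjusted p = 0.0108). Cpa3 lay below the filter level of 190.8 on all 10 compared arrays, so it was tested only because of the later groups. Among 9 lymphocyte genes limma called 0, with 2 higher at an unadjusted p of 0.05, and 0 to 1 when single arrays were left out. In complement 3 of 11 rose, and 6 without the 4 later arrays of high Gapdh ratio. The 3 were C1qb from 506 ± 153 to 1059 ± 115 (log2 change of 1.09, SE 0.18, adjusted p = 0.000585), and C1qc and the inhibitor gene Serping1, the latter 2 with log2 changes of 0.79 and 0.65. The other of the 2 C1qb probe sets was not called. Of 13 chemokine and cytokine genes 4 rose, and 2 without sham replicate 1, 4 or 5 or castrated replicate 1, 4 or 5. Ccl8, a chemokine that attracts monocytes, read 45.8, 106, 52.8, 34.8 and 167 in sham and 428, 690.1, 393, 376 and 247 in castrated mice, a 5.05-fold rise without overlap (log2 change of 2.34, SE 0.40, adjusted p = 0.000644). The class I presentation genes rose in 7 of 15 cases, among them the immunoproteasome gene Psmb8 from 542 ± 115 to 879.7 ± 46.1 (log2 change of 0.71, SE 0.15, adjusted p = 0.0038) and the activator gene Psme1 from 1036 ± 172 to 1641 ± 148 (log2 change of 0.67, SE 0.16, adjusted p = 0.00694), while H2-Q10 fell.

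Of 29 interferon-induced genes 10 rose and 2 fell, with a median of 0.38, and 4 fell without castrated replicate 5. Ifit3, an antiviral effector, had signals of 46.5, 84.6, 121, 46.1 and 102 in sham and 337, 443, 371, 412 and 449.6 in castrated mice, without overlap (4.71-fold; log2 change of 2.24, SE 0.28, adjusted p = 2.81e-05). The guanylate-binding protein genes Gbp3 and Gbp2 rose from 119.6 ± 11.5 to 327 ± 67.3 (log2 change of 1.35, SE 0.18, adjusted p = 6.4e-05) and from 85.8 ± 23.8 to 212 ± 34.8 (log2 change of 1.22, SE 0.22, adjusted p = 0.00102). Iigp1, an interferon-inducible GTPase, rose from 113 ± 43 to 350.2 ± 137 (log2 change of 1.51, SE 0.29, adjusted p = 0.00174). The genes that fell were Isg20, an exonuclease, and Ifi30, a lysosomal thiol reductase, with log2 changes of -1.15 and -0.72. Sham replicate 1 had by far the highest Isg20 signal, and the groups did not overlap without it either.

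Promoters of Ifit3, Gbp3 and Gbp2 are shown because they hold the core of the element through which interferon signals act, GAAANNGAAA, read on both strands. Of the 10 genes that rose in the list, 8 had a window and 5 held the core (Ifit3, Gbp3, Gbp2, Ifitm3 and Ifih1), against 3.99% of genes and 3.44% of windows. The list is of known interferon targets, so a share above that of all genes was likely whether or not they changed. The share among its members not called was not computed. The windows are chr19:34583279-34583578, chr3:142559794-142560093 and chr3:142620413-142620712 (GRCm38.p6, all plus strand), with the core in capitals. Each copy here is on the opposite strand and so is written as the reverse complement.
Ifit3: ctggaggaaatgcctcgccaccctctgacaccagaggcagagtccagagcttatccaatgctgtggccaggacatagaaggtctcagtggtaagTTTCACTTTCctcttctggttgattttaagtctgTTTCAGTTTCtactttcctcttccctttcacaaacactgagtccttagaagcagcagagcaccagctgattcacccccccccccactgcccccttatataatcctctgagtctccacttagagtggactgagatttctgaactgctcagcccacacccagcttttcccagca
Gbp3: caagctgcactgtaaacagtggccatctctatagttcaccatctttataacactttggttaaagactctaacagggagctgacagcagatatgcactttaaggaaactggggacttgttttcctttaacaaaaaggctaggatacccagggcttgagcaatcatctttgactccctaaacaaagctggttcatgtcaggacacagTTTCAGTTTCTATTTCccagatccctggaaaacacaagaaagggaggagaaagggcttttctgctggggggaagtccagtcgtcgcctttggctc
Gbp2: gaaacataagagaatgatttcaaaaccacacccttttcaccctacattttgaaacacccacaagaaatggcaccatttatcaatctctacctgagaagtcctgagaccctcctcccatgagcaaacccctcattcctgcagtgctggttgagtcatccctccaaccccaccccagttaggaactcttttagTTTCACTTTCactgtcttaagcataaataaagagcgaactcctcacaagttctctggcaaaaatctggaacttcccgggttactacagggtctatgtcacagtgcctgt
Ifit3 and Gbp3 hold 2 matches each, overlapping in Gbp3, and Gbp2 holds 1. The androgen and glucocorticoid receptor palindrome, searched as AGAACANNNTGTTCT, was in none of the 645 called genes with a window, of 812 called. Only 3 of 27025 genes (0.0111%) held it, so it was too rare for its absence to say anything about receptor sites.

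Matrix and fibroblast genes rose. Of 33 tested fibroblast and matrix genes 17 rose and 1 fell, with a median of 0.62, and of 17 collagens 8 rose and none fell, with a median of 0.36. The counts were 12 and 6 without sham replicates 2 and 3. Lum, a small proteoglycan of collagen fibrils, read 437, 780.5, 907, 572 and 879 in sham and 1905, 2256, 1807, 1655 and 2081 in castrated mice. The groups were well apart (log2 change of 1.47, SE 0.17, adjusted p = 1.08e-05). Mfap5, a microfibril protein gene, rose from 406 ± 64.4 to 958 ± 131 (log2 change of 1.22, SE 0.12, adjusted p = 3.39e-06), and Tcf21, a transcription factor of fibroblasts, from 247 ± 57.5 to 694 ± 242 (log2 change of 1.41, SE 0.18, adjusted p = 3.66e-05). Castrated replicate 5 had the highest Tcf21 signal. Col3a1, a fibrillar collagen gene, read 1074, 659, 658, 580.4 and 684 in sham and 1552, 1948, 1579, 1522 and 1528 in castrated mice (log2 change of 1.17, SE 0.18, adjusted p = 0.000288). Col1a1 read 2010.5, 786, 697, 843 and 926 in sham and 2089, 2106, 1633, 2141 and 2378 in castrated mice, with overlap through sham replicate 1 (log2 change of 1.07, SE 0.21, adjusted p = 0.00185). The other of its 2 probe sets was not called. The matrix member that fell was Dpep1, a membrane dipeptidase (log2 change of -0.97, SE 0.23, adjusted p = 0.00805), which did not pass without sham replicates 2 and 3 (adjusted p = 0.0593).

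Of 17 tested basement membrane genes 2 rose, Lama3 and Lamb3, a share near that of all genes. Lama3, a laminin chain of the epithelial basement membrane, read 83.9, 183, 67.9, 195 and 171 in sham and 404, 415, 458, 503 and 473 in castrated mice, without overlap (log2 change of 1.70, SE 0.21, adjusted p = 2.46e-05). Col17a1, a hemidesmosome collagen gene of basal cells, rose from 160.3 ± 51.7 to 415 ± 96.7 (log2 change of 1.33, SE 0.19, adjusted p = 0.000137).

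Proteases and their inhibitors rose in 12 of 27 cases and fell in none, with a median of 0.34. Without sham replicates 2 and 3 the count was 8, and it was 8 to 12 when single arrays were left out. Besides Ctss they included Plat, a plasminogen activator gene, from 273 ± 80 to 522 ± 125 (log2 change of 0.92, SE 0.18, adjusted p = 0.00235), and Lgmn, the lysosomal protease legumain, from 199 ± 16.5 to 383 ± 44.7 (log2 change of 0.90, SE 0.12, adjusted p = 4.32e-05). Of 26 genes known to rise in the regressing prostate 9 rose and none fell, with a median of 0.33, a list that was drawn from published knowledge of this very tissue. Clu, clusterin, which is the best known of them, read 4551, 5589, 6832, 4732 and 8470.1 in sham and 12432, 11152, 10159, 7041 and 10168 in castrated mice. The rise of 1.71-fold passed with overlapping groups (log2 change of 0.77, SE 0.17, adjusted p = 0.00413). Lgals3, galectin 3, rose from 181 ± 31.5 to 389.7 ± 62.5 (log2 change of 1.05, SE 0.16, adjusted p = 0.000167), without overlap.

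Among growth signals, binding proteins of insulin-like growth factors rose. Igfbp3 read 161, 244, 229, 227 and 285 in sham and 853, 752, 672, 1050.4 and 1766 in castrated mice. Castrated replicate 5 was the highest, and the rise was 4.07-fold (log2 change of 2.02, SE 0.23, adjusted p = 1.14e-05). Igfbp4 rose from 389 ± 61.5 to 643 ± 131 (log2 change of 0.69, SE 0.15, adjusted p = 0.00326) and Igfbp6 from 1141 ± 139 to 1744 ± 322 (log2 change of 0.60, SE 0.14, adjusted p = 0.0058), which made 3 of 10 tested, whereas the growth factor Igf1 did not pass (log2 change of -0.09, SE 0.16, adjusted p = 0.759). Of 30 Wnt, Hedgehog, Notch and FGF genes 7 rose and 2 fell, and fewer rose with a filter on the mean signal. Smo and Sfrp1 of this list lay below the filter level of 190.8 in every sham mouse. They were therefore tested only because of groups where they were higher. The Hedgehog signal transducer Smo rose from 68.7 ± 23.2 to 189.9 ± 44.6 (log2 change of 1.33, SE 0.16, adjusted p = 2.46e-05) and the Wnt antagonist Sfrp1 from 102 ± 30.9 to 260.4 ± 31.6 (log2 change of 1.30, SE 0.23, adjusted p = 0.000784), while the ligands Wnt4 and Dhh fell, with log2 changes of -0.94 and -0.46. The call of Dhh was lost without sham replicates 2 and 3 (adjusted p = 0.0602). Fgfr1, a receptor of fibroblast growth factors, rose from 255 ± 54.8 to 489 ± 76.6 (log2 change of 0.92, SE 0.14, adjusted p = 0.000258). In the transforming growth factor beta list 5 of 25 rose and 1 fell, with 3 rises without sham replicate 1 or 2 or castrated replicate 1, 3, 4 or 5. In the EGF family limma called 0 of 6, with 0 also at an unadjusted p of 0.05.

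Genes of cell division and cell death gave few calls. Of 36 S phase genes 1 rose, Lig1, a DNA ligase (log2 change of 0.78, SE 0.17, adjusted p = 0.00366), and of 38 mitosis genes 1 fell, Cdc25c, a phosphatase that starts mitosis (log2 change of -1.34, SE 0.32, adjusted p = 0.00801), although its other probe set was not called. The count of falls in the mitosis list was 4 without sham replicate 4, and 2 without sham replicate 2, 3 or 5 or castrated replicate 2 or 5. Mki67, the proliferation marker, was low in every mouse, at 52.4, 80.5, 55.7, 33.3 and 25.5 in sham and 12, 36.1, 32.6, 38 and 34.9 in castrated mice (log2 change of -0.49, SE 0.22, adjusted p = 0.146). Mki67 was below the filter level of 190.8 in all of them and was tested only because of the later groups. It passed without sham replicate 5 (adjusted p = 0.0483). Cdc25c was above that level only in sham replicate 5 (198.8) of the compared arrays, and so was also tested only because of the later groups. Of 33 Bcl2 family and caspase genes 4 rose and none fell, a share near that of all genes. They were Bid, a death-promoting Bcl2 relative, from 88.3 ± 34.6 to 172 ± 39.4 (log2 change of 0.91, SE 0.22, adjusted p = 0.00745), Traf2, Casp2 and Fadd. Of the compared arrays only castrated replicate 1 (210.2) had Bid above the filter level, so Bid was tested only because of the later groups. Casp2 and Fadd did not pass without sham replicates 2 and 3 (adjusted p = 0.0593 and 0.147). Fadd also did not pass without sham replicate 1, 2 or 3 or castrated replicate 1, 2 or 3. Bcl2, the survival gene, did not pass (log2 change of 0.34, SE 0.36, adjusted p = 0.602).

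Among epithelial keratins Krt19 rose. It read 5831, 6829.6, 5936, 6156 and 6761 in sham and 11539, 9900.2, 10538, 9163 and 8972 in castrated mice, without overlap (log2 change of 0.67, SE 0.13, adjusted p = 0.00253). Epcam, a luminal adhesion gene, rose from 1496 ± 160.5 to 2222 ± 274 (log2 change of 0.56, SE 0.11, adjusted p = 0.00185). Of 24 luminal genes 5 rose and none fell, with a median of 0.07. The count was 3 without sham replicate 2 or 3 or castrated replicate 1, 2, 3 or 5, and 2 without both sham replicates 2 and 3. Krt8 had a log2 change of 0.37 (adjusted p = 0.0787), which passed without sham replicate 5 (adjusted p = 0.0338), and Krt18 one of 0.11 (adjusted p = 0.69). Of 11 basal genes 3 rose, and 6 without the 4 later arrays of high Gapdh ratio. The count was 2 to 4 when single arrays were left out, and 2 without sham replicates 2 and 3.

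Markers of neighbouring tissues varied widely between mice, and their part in the results was not tested. The summed signal of 27 skeletal muscle genes was 6930 to 31090 in sham and 4612 to 9457 in castrated mice. Only Acta1 of that list passed, at 6328, 5948, 6673, 3176 and 1757 in sham and 732, 438, 926, 888 and 1565 in castrated mice (log2 change of -2.33, SE 0.49, adjusted p = 0.00333), also without sham replicates 2 and 3. Without sham replicates 2 and 3 the median of the list went from -0.93 to -0.08. Sva read 13381, 202, 619, 1529 and 185 in sham and 115, 30.9, 15.6, 85.2 and 521 in castrated mice (log2 change of -3.21, SE 0.94, adjusted p = 0.0265), and without sham replicate 1 the change was -2.23 (adjusted p = 0.0616). The summed seminal vesicle signal was 49570 to 71960 in sham and 41780 to 58650 in castrated mice. In smooth muscle 2 of 13 fell, Tagln and Actg2, with 4 falls without sham replicate 3 and 1 without sham replicate 1 or 4 or castrated replicate 1, 2, 3 or 4. Actg2 was lost without sham replicate 1 (adjusted p = 0.0945) and Tagln without sham replicates 2 and 3 (adjusted p = 0.072), and Acta2 did not pass (log2 change of -0.12, SE 0.14, adjusted p = 0.632). Car2, carbonic anhydrase 2, rose from 3778 ± 391 to 7431 ± 873 (log2 change of 0.97, SE 0.14, adjusted p = 0.000103). Cadps, a regulator of vesicle release in neuroendocrine cells, read 54.2, 88.5, 77.1, 75.8 and 127 in sham and 447, 263, 461, 317 and 500.2 in castrated mice, without overlap (log2 change of 2.08, SE 0.21, adjusted p = 2.87e-06). Of 14 nerve and neuroendocrine genes 3 rose, Cadps and the myelin genes Mbp and Pmp22, and the count was 5 without sham replicate 5. Without sham replicates 2 and 3 the count was 2, and Pmp22 did not pass (adjusted p = 0.0575). The list's fall was Nefh, a neurofilament gene, from 535 ± 305 to 221 ± 38.8 (log2 change of -1.09, SE 0.23, adjusted p = 0.0037), without overlap.

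**Figure D3:**
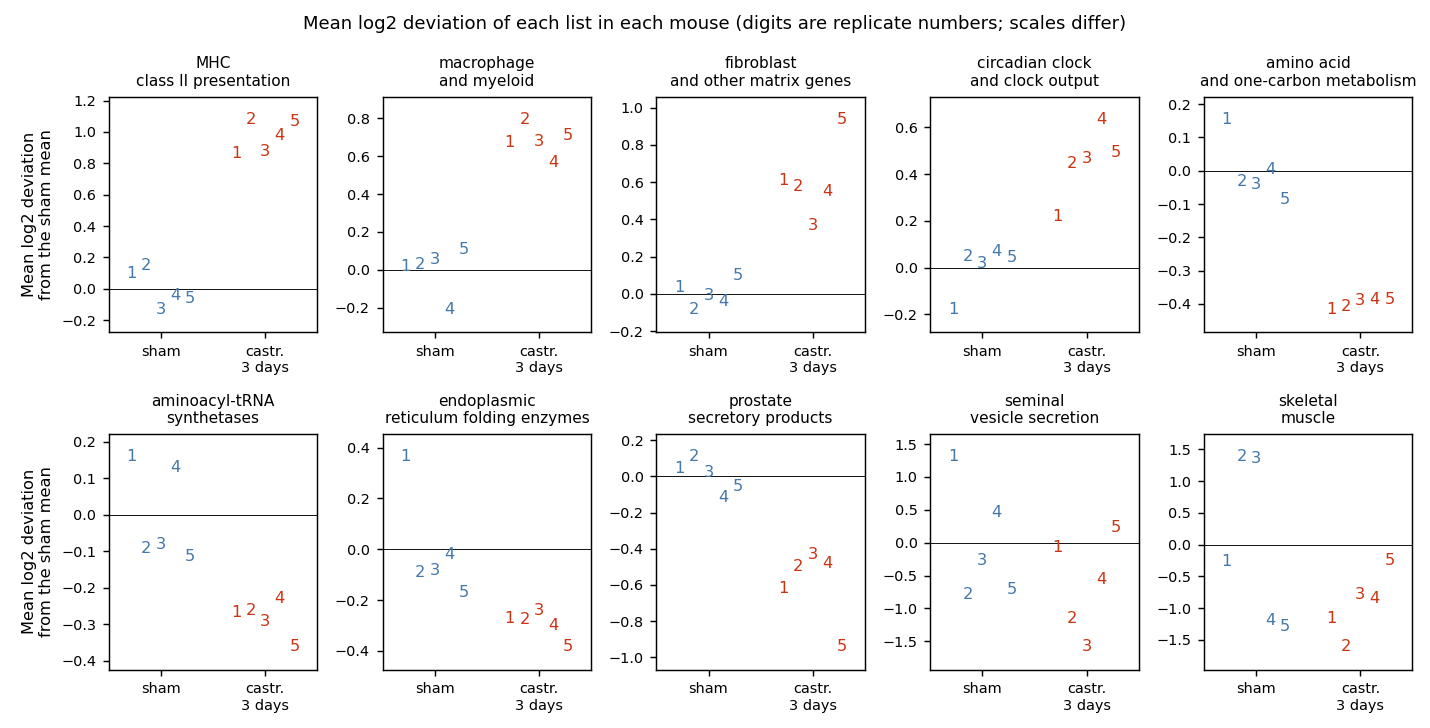
For 10 gene lists, each digit is 1 mouse (its replicate number, sham in blue and castrated 3 days in red) placed at its deviation from the sham mean, averaged over tested genes of the list on the log2 scale, on scales that differ between panels. The MHC class II, macrophage and fibroblast lists are separate between the groups, whereas the seminal vesicle and skeletal muscle lists overlap, with sham replicate 1 high in the first and sham replicates 2 and 3 high in the second.

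**Figure D4:**
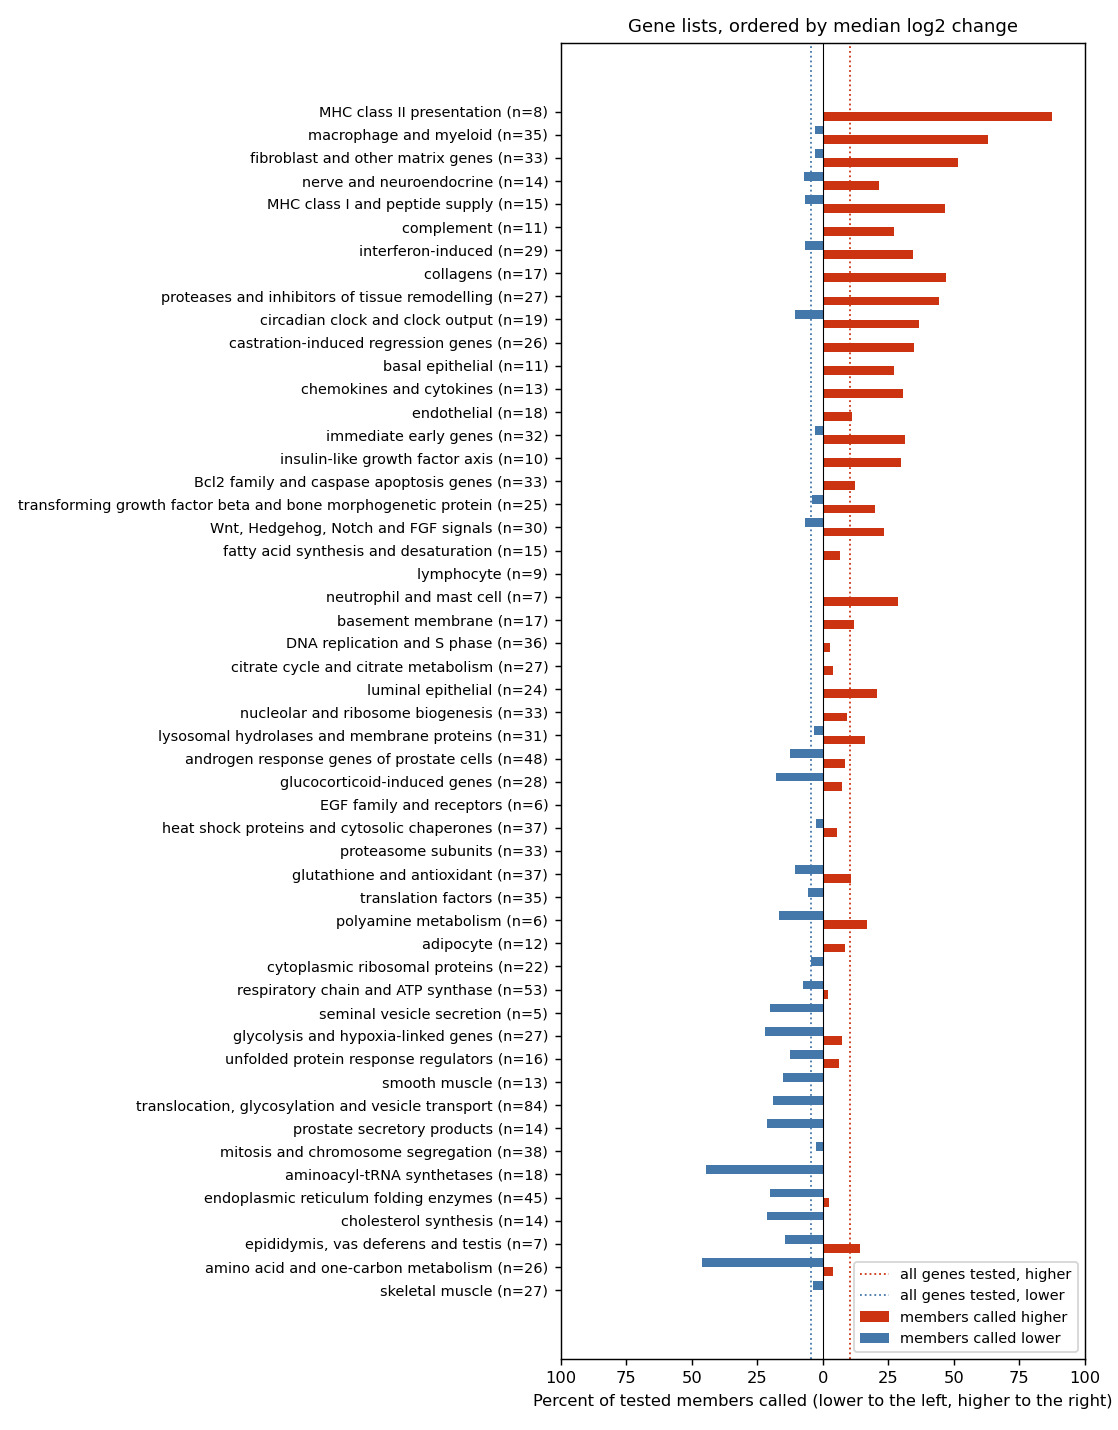
Bars give the percent of tested members called higher (red, to the right) or lower (blue, to the left) for each list with at least 5 tested genes, ordered by median log2 change, and dotted lines give the same for all genes, 10.5% and 4.65%. MHC class II presentation, with 7 of 8 higher, stands at the top, and the amino acid list, with 12 of 26 lower, has the longest bar to the left.

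The levels at 3 days can be set beside those of the later groups, which belong to comparisons of their own that share the sham arrays. Msmb averaged 134 ± 95.3 after 14 days of castration and 7497 ± 1698 after testosterone, and Cdo1 1306 ± 394 and 7464 ± 1016 (mean ± SD, n = 5 each). At 3 days they were 1092 ± 582 and 1667 ± 298. Igfbp3 averaged 3764 ± 865 at 14 days and 181 ± 56.6 after testosterone, Ctss 4734 ± 1565 and 1331 ± 222, and Lum 3789 ± 327 and 1406 ± 247. These 3-day means lay between those of sham and 14 days. Col1a1 averaged 767 ± 49.4 at 14 days, below its 3-day mean, and 3549 ± 729.8 after testosterone. In each later group 2 of the 5 arrays had a high Gapdh ratio. Without them, a choice made after seeing the data, the 14-day means of Msmb, Igfbp3 and Ctss were 200.3 ± 42.3, 3214 ± 256 and 3748 ± 394 (SD, n = 3 each), and the 3-day means of Igfbp3, Ctss and Lum still lay between sham and 14 days. No test of these differences was made here.

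**Figure D5:**
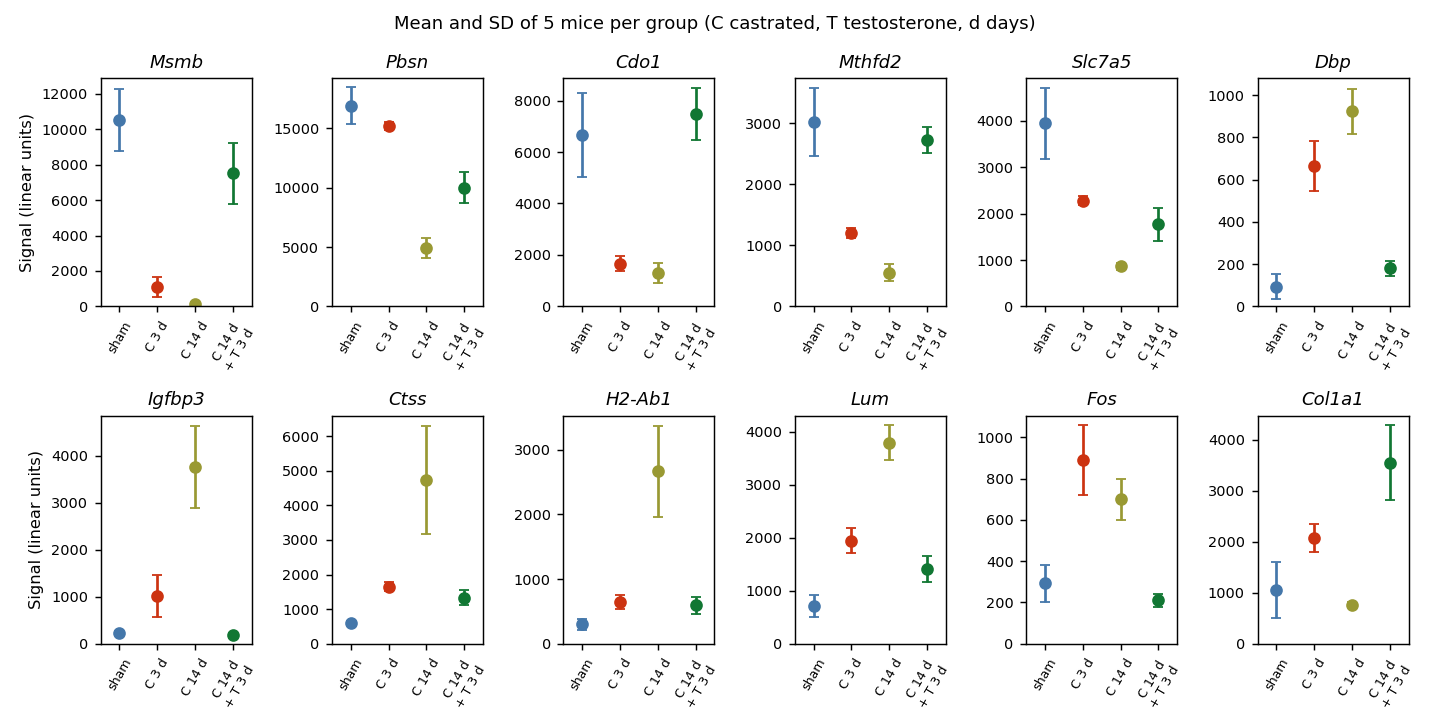
Mean signals (linear units, axes from 0) with SD of 5 mice for 12 genes in the sham mice, the 3-day and 14-day castrates (C 3 d, C 14 d), and the 14-day castrates given testosterone (C 14 d + T 3 d). The 3-day mean lies between sham and 14 days for every gene shown except Fos and Col1a1, for which it lies above both.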

How the data were processed

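Prostates of 20 mice were measured on 1 array each, in 4 groups of 5 mice. The deposited intensity values are linear signals from MAS5 version 5.0, per the submitters' processing notes, and each array had been scaled (trimmed means 499.9 to 499.93). Values were used as log2(signal + 12.7), the 10th percentile, so changes of dim genes are understated. Probe sets above 190.8 on at least 5 arrays were tested (6913 of 12422), after 66 controls were left out. Symbols came from GEO's platform annotation (10833 probe sets with 1 symbol, 396 with several, 1193 with none), of which RefSeq (GRCm38.p6) changed none. A gene is its probe set of highest mean. All 20 arrays entered 1 limma 3.58.1 fit (R 4.3.3), tested on simulated data, two-sided, with p-values adjusted by Benjamini-Hochberg across the probe sets and a threshold of 0.05; SEs are the model's. The labels do not state shared litters, pairs or batches.

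The comparison, its gene lists (55, from general knowledge) and the rule for named genes were chosen with earlier results of these data known. The rule took the 15 largest rises and 15 largest falls without overlap and with the higher mean above 190.8, up to 4 called members per list, members called against their list, and a fixed set; some list members were named after their values were seen. Of these 179 genes 25 had over 1 probe set tested, 15 with a further probe set not called and 0 with opposite calls. Called genes with a further probe set not called include C1qb, Casp2, Dhh, Dnajc3, Igfbp4, Mbp and Sel1l, besides Cdc25c, Col1a1 and Il1r2. The alternatives tried were 2 other pseudocounts, 2 filters, 2 normalizations, a fit on the compared groups, array weights, a variance trend, fewer probe sets and fewer arrays.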

Additional observations from a re-analysis of the deposited data

Results flagged for a closer look

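Among the named genes, 27 of 358 groups of 5 values (7.54%) had a highest or lowest mouse separated from the rest by a gap above Dixon's critical share of the range, 0.71 for 5 values, where chance gives about 5%. Sham replicate 1 accounted for 9 and castrated replicate 5 for 8. In sham replicate 1, Col1a1 (2010.5), Col3a1 (1073.6), Cxcl12 (662.4), Isg20 (1350.9) and Sel1l (1992.8) were high, and Krt18 (4343.8), Pbsn (14179.6), Pkp1 (133.7) and Sprr1a (357.5) were low. In castrated replicate 5, Actg2 (2970.8), Cav1 (3818.8), Ppic (538.1) and Smad6 (511.4) were high, and Epcam (1754.2), Gstz1 (1267.5), Sat1 (3403.3) and Uqcrq (3919.6) were low. Castrated replicate 4 was low for C1qc (1253.3) and Gstm5 (1989.9) and high for H2-DMb1 (332.9) and Pkp1 (417.0). Castrated replicate 2 was high for Col3a1 (1948.0), Srm (948.0) and Xbp1 (3852.9). The single others were Cct8 in sham replicate 5 (686.7, low), H2-DMb1 in sham replicate 4 (137.4, high) and Mki67 in castrated replicate 1 (12.0, low).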

How the results depend on the processing

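The main counts of 680 probe sets higher and 308 lower were 668 and 301 with a pseudocount of 1, 513 and 221 with arrays centred on their medians, 649 and 409 with quantile normalization, 702 and 324 when the fit held the 10 compared arrays alone, 871 and 422 with array weights, and 906 and 448 without the 4 later arrays of high Gapdh ratio. Leaving out 1 array gave 507 to 682 higher and 222 to 317 lower. With no filter, 594 were higher and 471 lower, which took the share of higher calls from 68.8% to 55.8%. Without sham replicates 2 and 3, an alternative chosen after seeing the data, 459 were higher and 193 lower. Of 168 called named genes, 112 kept their call in all 22 alternatives that tested them, 56 lost it in at least 1, and 0 changed sign. Atf5, Herpud1 and Nefh, for which sham replicate 1 was the highest sham array, were among the 112. Over the alternatives their log2 changes ran from -1.06 to -0.58, from -0.97 to -0.61 and from -1.43 to -0.82.

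Of 55 list medians 14 changed sign in at least 1 alternative, all between -0.11 and 0.09 as reported. Pbsn was 0.01 with quantile normalization. Xbp1 was 0.05 with quantile normalization, 0.01 with array weights and between -0.05 and 0.01 when single arrays were left out (above 0 without sham replicate 1, 2 or 5 or castrated replicate 1 or 4, and 0.0 without castrated replicate 3). Krt18 was -0.06 without sham replicate 1 and up to 0.18 without castrated replicate 5. The median of androgen response genes of prostate cells was -0.03 with a filter on the mean signal, between -0.04 and 0.04 when single arrays were left out (below 0 without sham replicate 3 or 5 or castrated replicate 5) and -0.04 without sham replicates 2 and 3. On plain probe sets alone the medians of polyamine metabolism and heat shock proteins and cytosolic chaperones were 0.07 each, and that of glycolysis and hypoxia-linked genes was 0.05 without sham replicates 2 and 3. Without those 2 arrays the adipocyte median went from -0.07 to 0.18, urothelium from -0.01 to 0.13, liver and plasma proteins from -0.08 to 0.06, neutrophil and mast cell genes from 0.09 to -0.03, polyamine metabolism from -0.03 to 0.04 and glutathione genes from -0.02 to 0.02. The cause of these shifts was not tested. Counts of list calls that moved over 1.5 times without the 4 later arrays of high Gapdh ratio included the respiratory chain (4 to 7 falls) and interferon-induced genes (2 to 4 falls), and with arrays centred on their medians androgen response genes (6 to 3 falls), chemokines and cytokines (4 to 2 rises), the transforming growth factor beta list (5 to 3 rises) and luminal genes (5 to 2 rises). With a filter on the mean signal the Wnt, Hedgehog, Notch and FGF list had 4 rises in place of 7. No paired analysis was possible because the labels give no shared replicate numbers.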
